A study of Homo sapiens with 18 samples.

Results

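Mitochondrial ribosomal protein genes were examined in K562 cells after gapmers against circPCMTD1. The set held every gene whose symbol is MRPL or MRPS followed by a number, with an A, B or C allowed after an MRPS number, and DAP3. This gave 79 of the 27781 genes in the count table, and 78 of them passed the filter on low counts. Most of their mRNA levels moved little: 5 were lowered and 1 was raised in knockdown cells, and the largest change, in MRPL16, was a fall of 15.0%.

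The mitochondrial ribosome is a dedicated ribosome in the mitochondrial matrix. It makes the few proteins encoded by mitochondrial DNA, all subunits of the respiratory chain or of ATP synthase. Its RNAs come from mitochondrial DNA, while every one of its proteins is encoded in the nucleus, made in the cytosol and imported. The large subunit joins amino acids and the small subunit reads the mRNA. Some of the proteins have counterparts in bacterial ribosomes, and others are found only in mitochondria.

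K562 is a human chronic myeloid leukemia cell line that carries the BCR-ABL1 fusion, grown here in Iscove's medium with serum. One group was transfected with gapmers, antisense oligonucleotides that recruit RNase H, aimed at the back-splice of circPCMTD1, a circle of RNA made from the PCMTD1 gene. The other received scrambled gapmers, and both were collected 48 hours after transfection. Each group had 3 biological replicates of 3 technical libraries, 18 in all, and technical libraries were summed within a replicate. Neither untreated cells nor a second gapmer appear among the samples used here, so an effect of the oligonucleotide and an effect of the circular RNA cannot be told apart. The samples come from 1 cell line, and the labels do not say how the biological replicates were separated, so p-values measure only the spread between these samples.

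Libraries held 19118533 to 29432699 counts and the 6 sums 63851576 to 76087774. PCMTD1, whose count adds linear and circular RNA, fell from 20.6 ± 1.13 to 12.3 ± 0.515 CPM (counts scaled to library size; SD, n = 3), at an adjusted p of 7.57e-10 in the edgeR test. All 16 erythroid leukemia markers examined lay at 1 CPM or more, led by HBG2 at 5229 CPM, and their summed level was 14604 to 14876 CPM in scrambled and 15178 to 16067 CPM in knockdown samples. The labels call the cells lymphoblasts, yet 8 of 10 lymphoid markers lay below 1 CPM, with MS4A1 at 0 and LEF1 highest at 12.3 CPM, and the list summed to 16.8 to 17.4 CPM in scrambled and 20.1 to 20.5 CPM in knockdown samples. Of 8 myeloid and stromal markers 5 lay below 1 CPM, LYZ was highest at 41.2 CPM, and the list summed to 42.3 to 44.9 and 51.2 to 52.3 CPM. Sums weigh abundant genes most: LYZ rose from 36.4 to 46.0 CPM, while ITGAM fell from 3.66 to 2.85 and COL1A1 from 1.99 to 1.23 CPM. At an adjusted p below 0.05 in edgeR, 2 of the 5 tested genes of that list were raised and 2 lowered. Among the erythroid markers 5 were raised and 2, TAL1 and ALAS2, lowered, beside 11.1% and 7.49% of all tested genes. The part of these shifts in the results below was not tested.

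Across the set, 1 of 78 tested genes was raised and 5 were lowered when calls were made at an adjusted p below 0.05 with edgeR's quasi-likelihood method, 7.69% of those tested. Over all 15678 tested genes 18.6% were called, 11.1% raised and 7.49% lowered. Among the 8737 genes with a mean level in the same range as the set, 9.17 to 235 CPM, 21.3% were called, 12.0% raised and 9.35% lowered. The median log2 fold change of the set was -0.0070, beside 0.0022 for all tested genes, and 41 of 78 values were below 0. At an unadjusted p below 0.05 there were 13 genes of the set, beside 31.2% of all tested genes. DESeq2 called 5 of the set, all lowered, beside 16.1% of all tested genes, 8.90% raised and 7.18% lowered. The median size of the change, whatever its sign, was 0.037 on the log2 scale, against 0.081 over all tested genes and 0.056 in the same range of levels. In bulk RNA, fewer cells with a transcript and less of it per cell cannot be told apart.

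The genes not called were bounded closely. Their 72 log2 fold changes lay between -0.10 and 0.098, and the 95% intervals of these changes between -0.20 and 0.19. For 77 of the 78 tested genes the interval lay wholly within a 1.2-fold change either way, a log2 value of 0.26. The exception was MRPL16. Standard errors ran from 0.026 to 0.060 with total counts of 3778 to 97026 per gene. The 3 values of each group did not overlap for 15 genes, 10 of them lower and 5 higher in knockdown cells. That is 19.2% of the set, beside 34.6% of all tested genes.

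**Figure D1:**
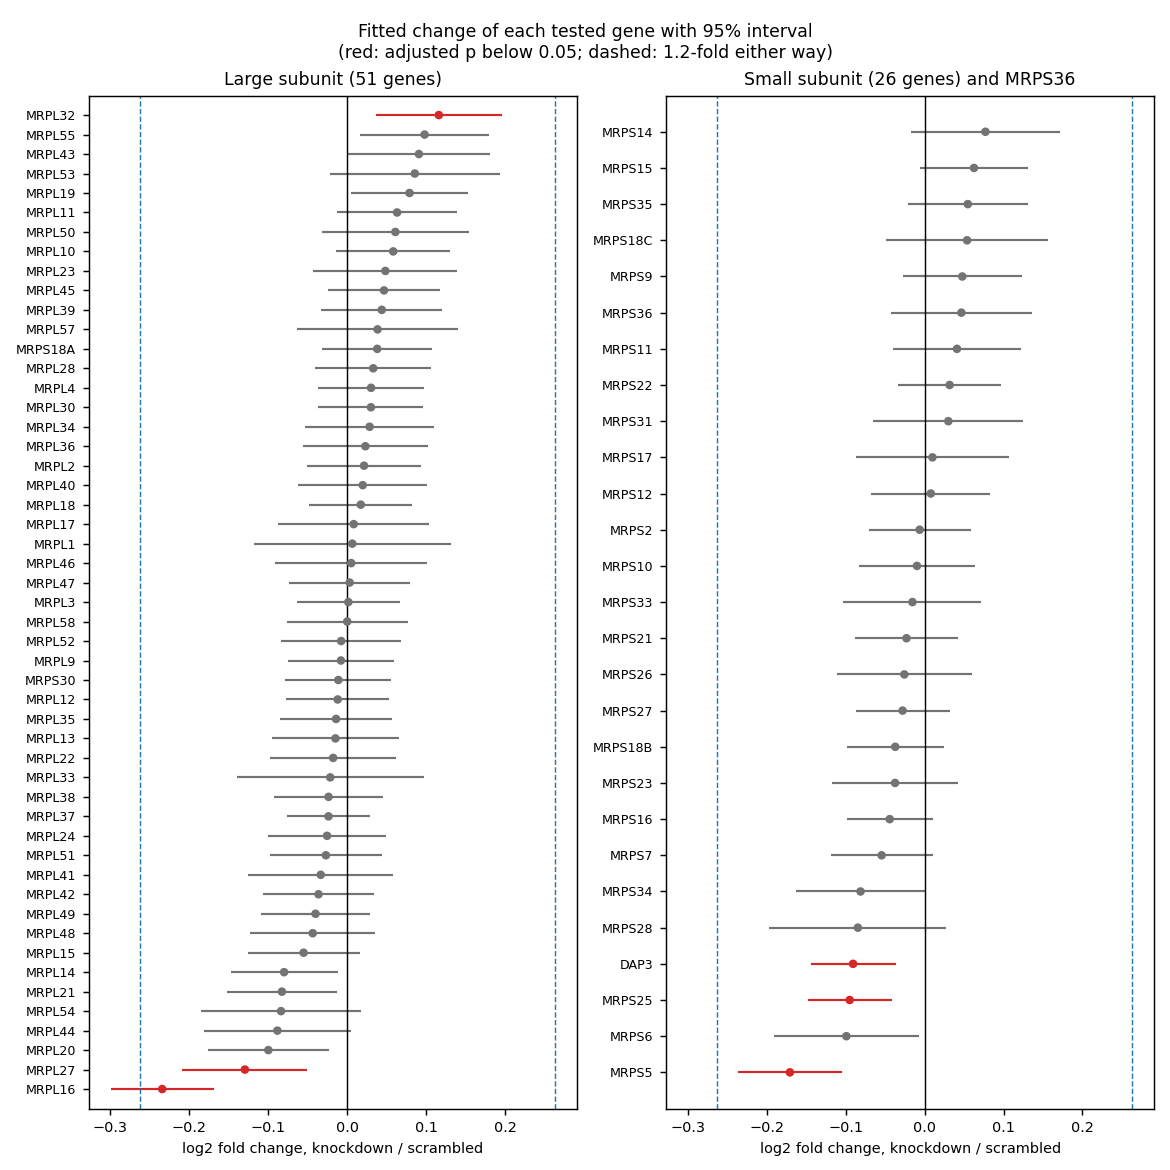
Log2 fold change of each tested gene (points) with its 95% interval (lines), knockdown over scrambled, for the large subunit on the left and for the small subunit and MRPS36 on the right. Red marks the 6 called genes and dashed lines a 1.2-fold change either way; only the interval of MRPL16 reaches past a dashed line.

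Promoter sequence was read for what the set shares. RefSeq (GRCh38.p14) gave windows from 250 bases before to 50 after the start for 70 of the 79 genes. Motifs of 3 factors known for nuclear genes of mitochondrial proteins were searched on both strands. The ETS motif CCGGAAG, the core bound by GABPA, was in windows of 30 of the 70 genes, 42.9%, beside 16.8% of 15170 protein-coding genes of the count table and 12.2% of all 27305 genes with a window. The YY1 motif AAGATGGCG was in 13 of them, 18.6%, beside 3.30% of the protein-coding genes and 2.14% of all. The NRF1 motif GCGCATGCG was in 3, 4.29%, beside 3.10% and 2.34%. At least one of these motifs was found for 40 of the 70 genes, 57.1%, and for 21.4% of the protein-coding genes. Overlap between matches was not removed, and a match describes letters, not binding.

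Of the 6 called genes, MRPL16 and MRPL27 held the ETS motif, MRPL32 held a YY1 match 223 bases before its start, and MRPS5, MRPS25 and DAP3 held none of the motifs searched. The 150 bases ending at the RefSeq start are shown for both genes with an ETS match, for MRPS25 as a lowered gene without any match and for MRPL32 as the raised gene, whose YY1 match lies further upstream. They are written 5′ to 3′ in the direction of transcription, with ETS matches in capitals.
MRPL16, chr11:59810778-59810927 (minus strand): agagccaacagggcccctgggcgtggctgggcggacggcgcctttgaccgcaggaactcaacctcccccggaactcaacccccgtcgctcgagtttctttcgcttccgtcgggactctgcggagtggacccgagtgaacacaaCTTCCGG
MRPL27, chr17:50373184-50373333 (minus strand): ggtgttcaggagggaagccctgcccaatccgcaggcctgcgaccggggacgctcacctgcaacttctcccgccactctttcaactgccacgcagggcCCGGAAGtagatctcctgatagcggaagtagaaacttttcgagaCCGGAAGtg
MRPS25, chr3:15065315-15065464 (minus strand): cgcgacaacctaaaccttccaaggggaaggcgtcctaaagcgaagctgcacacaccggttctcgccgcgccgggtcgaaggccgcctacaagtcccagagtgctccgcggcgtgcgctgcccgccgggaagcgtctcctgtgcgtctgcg
MRPL32, chr7:42932227-42932376 (plus strand): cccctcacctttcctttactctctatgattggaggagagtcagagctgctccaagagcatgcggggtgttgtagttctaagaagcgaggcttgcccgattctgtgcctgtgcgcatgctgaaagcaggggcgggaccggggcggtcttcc

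In MRPL16 the match is read on the opposite strand as CTTCCGG and begins 6 bases before the start, and in MRPL27 the matches begin 52 and 8 bases before it. These positions count from the RefSeq start, which can lie well inside the GENCODE gene: for MRPL16 it is at 59810778, and the GENCODE gene reaches to 59810872. The mRNA of GABPA, the ETS factor, had a log2 fold change of -0.04, and neither it nor NRF1 (-0.09) or YY1 (-0.0016) was called in edgeR. These 3 genes were named for the motifs after their values were seen.

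Of the 51 large subunit genes, 1 was raised and 2 were lowered, with a median log2 fold change of 0.0013, where 11.1% of all tested genes were raised and 7.49% lowered. MRPL16, at chr11:59806135-59810872 on the minus strand (GRCh38, GENCODE 29), encodes the counterpart of a bacterial protein beside the tRNA sites of the large subunit. Its level was 83.6, 83.9 and 82.0 CPM in scrambled replicates 1 to 3 and 69.2, 72.3 and 70.7 CPM in knockdown replicates 1 to 3. Every knockdown value lay below every scrambled one, and this also held for the single libraries, at 76.5 to 87.4 CPM (median 84.6) against 65.3 to 73.7 CPM (median 71.3). The gene fell by 15.0%, a log2 fold change of -0.23 (SE 0.031), with a 95% interval of -0.30 to -0.17 and an adjusted p of 1.48e-05 in edgeR. No named pseudogene or overlapping exon of another gene touches MRPL16 in the annotation.

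MRPL27, at chr17:50367857-50373214 on the minus strand, encodes the relative of a bacterial protein that reaches towards the peptidyl transferase centre, where peptide bonds form. It gave 34.4, 35.3 and 34.3 CPM in scrambled and 32.2, 32.4 and 30.4 CPM in knockdown replicates. The summed values did not overlap, but the libraries did, at 32.3 to 36.5 CPM (median 35.1) against 29.6 to 36.2 CPM (median 31.6). It fell by 8.60%, a log2 fold change of -0.13 (SE 0.038, adjusted p = 0.0198 in edgeR). MRPL27 is the called gene with 2 ETS matches. Its call was lost without scrambled replicate 1, 2 or 3, at adjusted p-values of 0.0606, 0.111 and 0.0501 in edgeR.

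MRPL32 was the one gene of the set called raised in the reported analysis, while 37 of the 78 tested genes had a log2 fold change above 0. It lies at chr7:42932200-42948958 on the plus strand, and its protein is trimmed by the m-AAA protease of the inner membrane before it joins the large subunit. Its level was 29.8, 29.03 and 29.9 CPM in scrambled and 33.1, 31.4 and 31.6 CPM in knockdown replicates, a rise of 8.37%. Single libraries overlapped, at 28.3 to 30.6 CPM (median 29.8) against 28.99 to 33.8 CPM (median 32.4). The log2 fold change was 0.12 (SE 0.038, adjusted p = 0.0379 in edgeR), and DESeq2 did not call it, at an adjusted p of 0.0649. Without scrambled replicate 1, 2 or 3 the adjusted p in edgeR was 0.101, 0.176 and 0.0833, and without knockdown replicate 1 or 2 it was 0.164 and 0.0588. One named pseudogene exists, and exons of PSMA2 on the other strand cover 2.32% of the MRPL32 exons.

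Within the large subunit, both genes called lowered and the one called raised were among the 30 genes with a bacterial counterpart. The 21 mitochondria-specific large subunit genes had 0 calls in edgeR and 0 in DESeq2, and 1 lay at an unadjusted p below 0.05, beside 18.6% of all tested genes called in edgeR. With the GC correction 2 of them were lowered, without knockdown libraries 3_2 and 3_3, 2 were lowered and 1 raised, and without knockdown replicate 3, 1 was lowered. In the same order, 31.9%, 32.0% and 29.8% of all tested genes were called. Their log2 fold changes ran from -0.089 to 0.091, with a median of -0.0078. Whether these classes differ was not tested.

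Of the 26 tested small subunit genes, 3 were lowered and 0 were raised, with a median log2 fold change of -0.019. The background is 7.49% lowered and 11.1% raised over all tested genes, and 9.35% and 12.0% among genes of like level. DESeq2 also called 3, and 4 lay at an unadjusted p below 0.05 in edgeR. MRPS5, at chr2:95087207-95149434 on the minus strand, encodes the counterpart of a bacterial protein that lines the mRNA entry channel. Its values were 76.5, 74.4 and 76.5 CPM in scrambled and 69.1, 67.0 and 66.0 CPM in knockdown replicates. The groups were also apart over libraries, at 73.0 to 81.3 CPM (median 75.0) against 64.1 to 70.1 CPM (median 68.1). MRPS5 fell by 11.2%, with a log2 fold change of -0.17 (SE 0.032, 95% interval -0.24 to -0.10, adjusted p = 0.000598 in edgeR). It has 2 named pseudogenes, to which some of its reads could be assigned.

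MRPS25 and DAP3 belong to the mitochondria-specific proteins of the small subunit. MRPS25 lies at chr3:15042460-15065335 on the minus strand and had the highest CPM of the set. It gave 246, 239 and 243 CPM in scrambled and 226, 228 and 228 CPM in knockdown replicates. Its libraries did not overlap, at 235 to 249 CPM (median 244) against 220 to 229 CPM (median 228). The log2 fold change was -0.09 (SE 0.026, adjusted p = 0.0115 in edgeR), and the call was lost without scrambled replicate 1 (0.0896) or scrambled replicate 3 (0.0567). Exons of NR2C2 on the other strand cover 16.5% of the MRPS25 exons, and the strand setting of the counts is not given in the sources used here.

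DAP3, at chr1:155687960-155739010 on the plus strand, encodes a GTP-binding protein of the small subunit head that was first described as a mediator of cell death. Its level was 207, 206 and 205 CPM in scrambled and 195, 192 and 195 CPM in knockdown replicates. All 9 knockdown libraries, at 188 to 200 CPM (median 196), lay below all 9 scrambled libraries, at 204 to 209 CPM (median 206). DAP3 fell by 6.09%, a log2 fold change of -0.09 (SE 0.026, adjusted p = 0.0169 in edgeR). The call was lost without scrambled replicate 1 (0.0874), 2 (0.0892) or 3 (0.0609) and without knockdown replicate 2 (0.0771). Exons of YY1AP1 on the other strand cover 4.43% of the DAP3 exons, and 2 named pseudogenes exist.

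**Figure D2:**
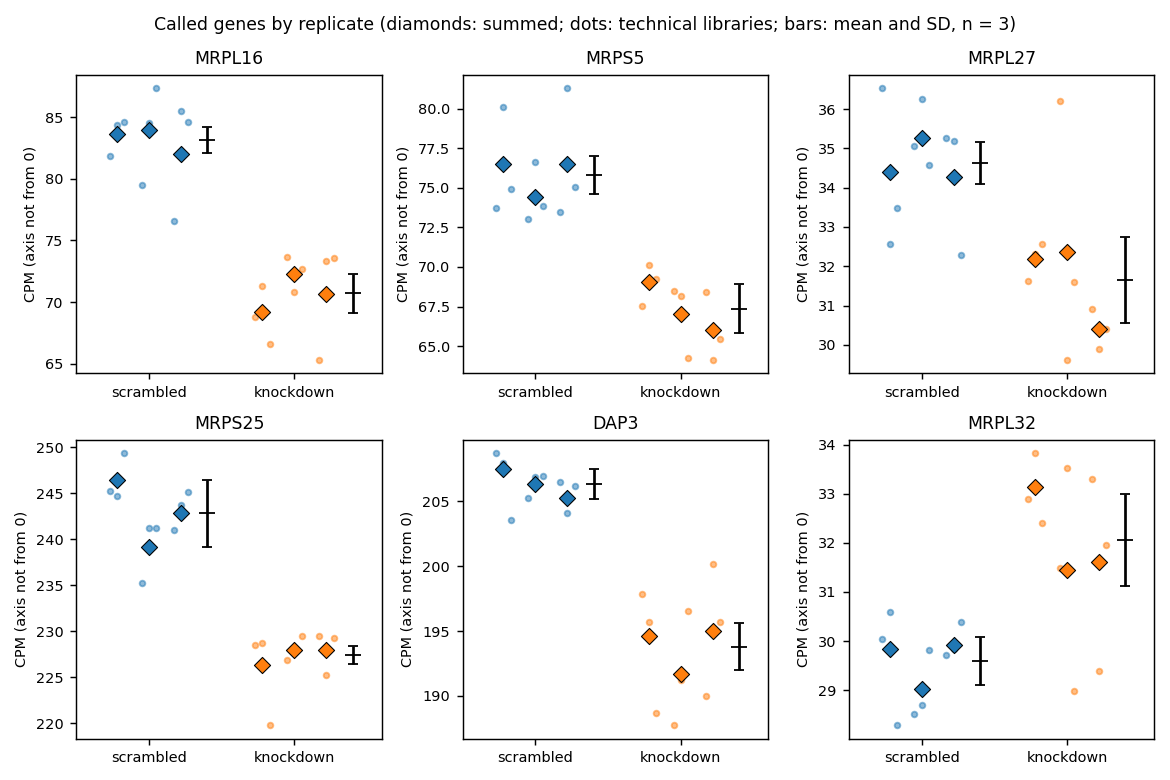
Level in CPM of the 6 called genes in scrambled and knockdown cells, with summed replicates as diamonds, technical libraries as dots and the mean with SD (n = 3) as bars, on axes that do not start at 0. Single libraries of the groups are apart for MRPL16, MRPS5, MRPS25 and DAP3 and overlap for MRPL27 and MRPL32.

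In a test against a 1.2-fold change each of the 6 called genes had an adjusted p of 1 in edgeR, while 195 of all tested genes passed. MRPL16 and MRPS5 were called in the other 19 of 20 alternative analyses, MRPS25 in 17, MRPL27 in 16, DAP3 in 15 and MRPL32 in 13. Their directions were the same in all 20, including 3 other scalings of the libraries. Not all 20 weigh the spread between biological replicates. Entering libraries singly treats technical libraries as samples, and each sum by the second number pools libraries of all biological replicates in a group.

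Just outside the threshold, MRPL20 had a log2 fold change of -0.10 (adjusted p = 0.0629 in edgeR), with 35.5, 35.9 and 35.6 CPM in scrambled and 34.2, 33.4 and 32.2 CPM in knockdown replicates. MRPL55 had 0.098 (adjusted p = 0.0897 in edgeR) and MRPL21 -0.083 (adjusted p = 0.0928 in edgeR). All are large subunit proteins with bacterial counterparts. MRPL20 and MRPL21 had groups that did not overlap, and MRPL55 had knockdown values of 37.7, 36.8 and 34.4 CPM against 34.6, 33.7 and 33.4 CPM. MRPS6, at -0.099, completed the 5 lowest log2 fold changes of the set, and MRPL43 (0.091), MRPL53 (0.086) and MRPL19 (0.079) the 5 highest. None of these 4 was called, with adjusted p-values in edgeR of 0.127, 0.157, 0.279 and 0.132.

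Humans have 3 related genes for the protein called S18 in bacteria, and their products sit in different places. MRPS18C occupies the bacterial position and MRPS18B another site of the small subunit, whereas MRPS18A lies in the large subunit. Their levels per kilobase of transcript differed, at 76.7 CPM for MRPS18B, 51.4 CPM for MRPS18A and 9.37 CPM for MRPS18C. In the same order, log2 fold changes were -0.037, 0.038 and 0.054, with adjusted p-values of 0.427, 0.478 and 0.497 in edgeR. Exons of RSPH9 on the other strand cover 56.9% of the MRPS18A exons, and exons of ABRAXAS1 78.9% of the MRPS18C exons, so their counts could hold reads of those genes.

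MRPS36 carries a mitoribosomal name, but its protein is now placed in the oxoglutarate dehydrogenase complex, and it is counted in neither subunit. It gave 20.6, 20.4 and 20.7 CPM in scrambled and 20.7, 21.0 and 22.05 CPM in knockdown replicates, with a log2 fold change of 0.047 (adjusted p = 0.497 in edgeR). MRPS24 was the gene not tested, with 23 counts over all 18 libraries. It lies at chr7:43866558-43869893, and exons of the readthrough gene URGCP-MRPS24 on the same strand cover 77.0% of its exons. That readthrough gene held 3 counts in all, and the part of the overlap in both low counts was not tested.

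Levels per transcript length spanned 18.3-fold across the tested genes, with a median of 40.3 CPM per kilobase. MRPL37, a mitochondria-specific large subunit protein, was highest at 150 CPM per kilobase, followed by DAP3 at 121 and by MRPL12, the stalk protein that contacts translation factors, at 104. The lowest were MRPS23 at 8.20, MRPL57 at 8.23 and MRPL50 at 8.42 CPM per kilobase, which lie too close to be ordered. Of these 6 genes DAP3 was called and the other 5 were not, with log2 fold changes between -0.037 for MRPS23 and 0.061 for MRPL50. One transcript stood for each gene, so a gene that uses a shorter transcript has its level per kilobase understated.

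Sums over the subunits were compared as levels, with no test, since the genes were chosen with earlier results known. The tested genes together held 4773, 4746 and 4719 CPM in scrambled and 4689, 4672 and 4686 CPM in knockdown replicates, a difference of -1.34%. Large subunit genes summed to 2740 ± 14.3 CPM in scrambled and 2727 ± 5.28 CPM in knockdown cells (SD, n = 3), and 2 of the 3 knockdown sums, at 2733 and 2726.1 CPM, were above the lowest scrambled sum of 2726.0 CPM. Small subunit genes summed to 1986 ± 12.9 and 1934 ± 7.99 CPM, a difference of -2.61%, and every knockdown sum lay below every scrambled one.

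The small subunit sum divided by the large subunit sum was 0.725, 0.725 and 0.723 in scrambled and 0.708, 0.706 and 0.713 in knockdown replicates. Over single libraries it ran from 0.7173 to 0.7330 in scrambled and from 0.6961 to 0.7172 in knockdown cells, so the groups met closely without overlapping. MRPS5, MRPS25 and DAP3 made up -36.5 of the -51.9 CPM by which the small subunit sum differed. Without the 6 called genes the ratio was 0.563, 0.566 and 0.561 against 0.556, 0.555 and 0.561, and the groups came close at 0.5606 in knockdown replicate 3 and 0.5611 in scrambled replicate 3. The ratio gives abundant genes more weight and compares mRNA, not protein.

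**Figure D3:**
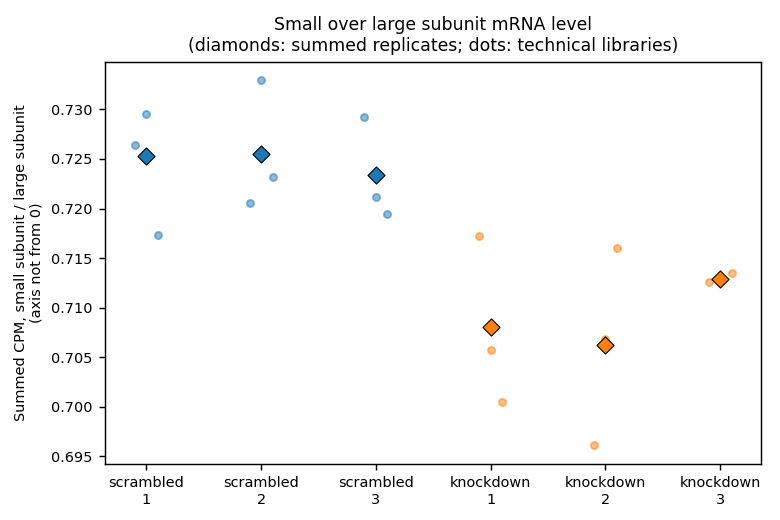
Summed CPM of small subunit genes divided by that of large subunit genes in each replicate (diamonds) and technical library (dots), on an axis that does not start at 0. The scrambled replicates lie at 0.723 to 0.725 and the knockdown replicates at 0.706 to 0.713.

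Knockdown replicate 3 stood apart from the other 2 along GC content. Each sample's log2 CPM was set against the mean of the other 2 samples of its group, and this deviation was related to transcript GC content over the 78 tested genes, as a description across genes, which share libraries and are not independent. For knockdown replicate 3 Pearson's r was -0.77 and Spearman's rho -0.78. The median deviation was 0.075 for the 21 genes below 45% GC and -0.11 for the 13 genes above 60%. Knockdown replicates 1 and 2 had r of 0.54 and 0.63, as deviations within a group sum to 0. Scrambled replicates 1, 2 and 3 had r of 0.33, 0.019 and -0.40. Scrambled replicate 3 thus leaned the same way as knockdown replicate 3, with smaller median deviations of 0.034 below 45% GC and -0.030 above 60%. Technical libraries 3_2 and 3_3 of the knockdown group each had r of -0.74, and library 3_1 had -0.20.

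MRPL41, at 71.9% GC the highest of the set, had 48.0 CPM in knockdown replicates 1 and 2 and 41.7 CPM in replicate 3. MRPL50, at 35.0% the lowest, had 27.8, 27.7 and 30.4 CPM. MRPL41 was named for its GC content after its values were seen. The fitted log2 fold change itself had r of -0.089 with GC content, which became 0.21 without knockdown libraries 3_2 and 3_3.

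**Figure D4:**
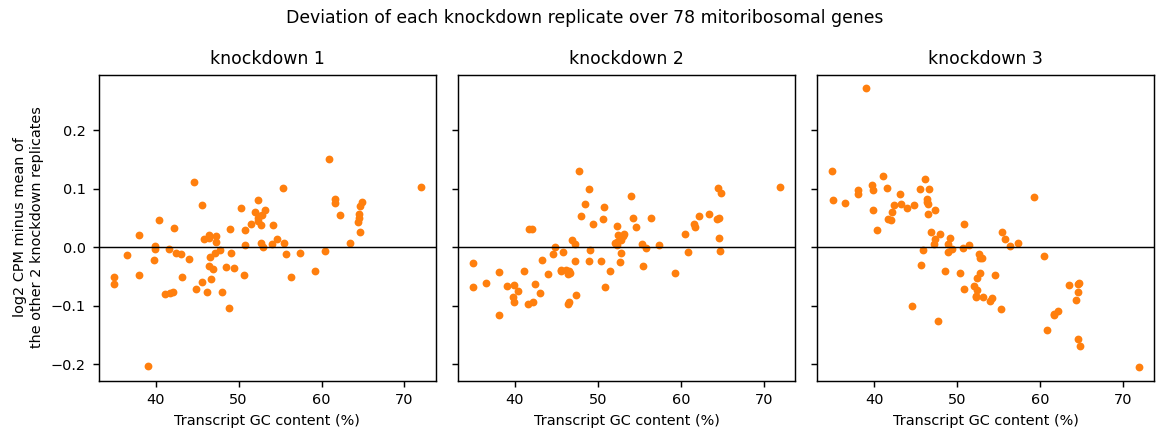
Log2 CPM of each knockdown replicate minus the mean of the other 2 knockdown replicates, against transcript GC content in percent, for the 78 tested genes (points). Knockdown replicate 3 slopes down (r = -0.77) and replicates 1 and 2 slope up.

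The number of genes called moved with this replicate. With a correction for GC content 5 genes of the set were raised and 11 lowered, 20.5% of the set, beside 31.9% of all tested genes. Without knockdown libraries 3_2 and 3_3, 8 were raised and 14 lowered, 28.2% of the set, beside 32.0% of all. Without knockdown replicate 3 altogether 7 were raised and 10 lowered, 21.8% of the set, beside 29.8% of all. Leaving out scrambled replicate 1, 2 or 3 instead left 2, 3 and 2 lowered and 0 raised. In the same order, 11.04%, 11.41% and 12.41% of all tested genes were called. Leaving out knockdown replicate 1 or 2 left 5 and 4 lowered and 0 raised, beside 15.59% and 12.94% of all tested genes called. The 6 genes called in the reported analysis were all called in the first 3 of these analyses. With the GC correction the large subunit had 4 raised and 7 lowered genes and the small subunit 1 and 4, and without the 2 libraries 8 and 8, and 0 and 6.

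**Figure D5:**
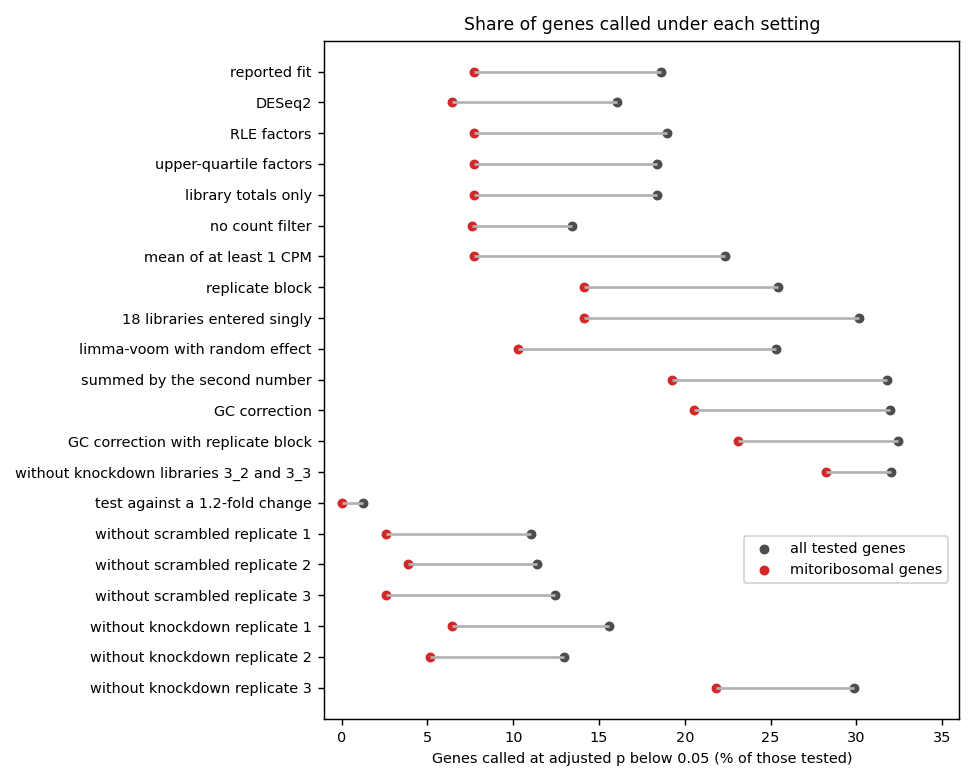
Percent of genes called at an adjusted p below 0.05, among mitoribosomal genes (red) and all tested genes (grey), in the reported analysis and each of 20 alternatives. The red point lies left of the grey one in each, from 0 against 1.24% in the test of a 1.2-fold change to 28.2% against 32.0% without knockdown libraries 3_2 and 3_3.

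Of 4 mitoribosomal proteins with other names, 1 was called, beside 18.6% of all tested genes. GADD45GIP1, of the large subunit, rose from 30.1 ± 1.16 to 32.8 ± 1.51 CPM (SD, n = 3; log2 fold change 0.12, adjusted p = 0.0463 in edgeR). Its call was lost with DESeq2 (0.0726), with RLE factors (0.0532), without scrambled replicate 1 (0.0527), 2 (0.24) or 3 (0.123) and without knockdown replicate 1 (0.15) or 2 (0.176). The small subunit proteins PTCD3, AURKAIP1 and CHCHD1 had log2 fold changes of -0.047, 0.033 and -0.0074, with adjusted p-values of 0.335, 0.569 and 0.945 in edgeR. Without knockdown replicate 3 PTCD3 (-0.089, adjusted p = 0.000166 in edgeR) and AURKAIP1 (0.076, adjusted p = 0.00552 in edgeR) were called.

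Mitoribosome assembly factors, which fold and modify the rRNAs and join the proteins to them, had 2 raised and 4 lowered genes of 25. The background was 11.1% raised and 7.49% lowered over all tested genes. Their median log2 fold change was -0.046. METTL15, a methyltransferase of the small subunit rRNA, rose from 22.8 ± 1.07 to 26.6 ± 0.361 CPM (SD, n = 3), and its 3 knockdown values were above all scrambled ones (0.22, adjusted p = 0.000688 in edgeR). MTERF4, which acts in large subunit assembly, fell from 25.8 ± 0.567 to 23.0 ± 0.308 CPM (-0.17, adjusted p = 0.00516 in edgeR). NGRN, needed for the large subunit rRNA, fell from 95.4 ± 1.44 to 87.3 ± 3.33 CPM (-0.13, adjusted p = 0.00867 in edgeR), a call lost without scrambled replicate 1 (0.0577) or 2 (0.0597). The other genes called, outside the naming rule, were MPV17L2 (0.17), MTG1 (-0.17) and MTG2 (-0.10). Lowered genes numbered 1, 2 and 3 without scrambled replicate 1, 2 or 3, 5 and 3 without knockdown replicate 1 or 2, and 7 without knockdown replicate 3, and raised genes 1 without scrambled replicate 1 or knockdown replicate 2.

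Translation factors of mitochondria had 1 lowered gene of 17 and 0 raised, with 2 at an unadjusted p below 0.05 and 1 called by DESeq2. Over all tested genes 7.49% were lowered and 11.1% raised in edgeR. The lowered gene of this list was MSS51, related to a yeast gene for cytochrome oxidase translation. Whether human MSS51 acts in mitochondrial translation was not tested. It fell from 4.60 ± 0.226 to 3.52 ± 0.557 CPM (SD, n = 3), a log2 fold change of -0.39 (adjusted p = 0.00601 in edgeR). Its knockdown values were 3.30, 3.11 and 4.15 CPM against 4.80, 4.64 and 4.36 CPM. Without knockdown replicate 3 lowered genes of this list numbered 2.

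Genes of mitochondrial transcription and regulators of nuclear mitochondrial genes had 2 lowered of 13 tested and 0 raised, beside 7.49% and 11.1% of all tested genes. Their median was -0.040, with 5 at an unadjusted p below 0.05 and 2 called by DESeq2. TFB2M, which starts mitochondrial transcription, fell from 48.1 ± 0.131 to 44.2 ± 1.09 CPM (SD, n = 3; -0.12, adjusted p = 0.0154 in edgeR). PPRC1, a coactivator related to PGC-1, fell from 135 ± 2.85 to 125 ± 4.26 CPM (-0.11, adjusted p = 0.0167 in edgeR). TFB2M lost its call without scrambled replicate 1 (0.0674), 2 (0.0663) or 3 (0.0569) and without knockdown replicate 1 (0.0612) or 2 (0.0626), and PPRC1 without scrambled replicate 1 (0.0845) or 2 (0.115). Lowered genes numbered 0, 0 and 1 without scrambled replicate 1, 2 or 3, 1 without knockdown replicate 2, 4 without knockdown replicate 3 and 7 with the GC correction. That correction lowered 16.9% of all tested genes.

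The mitochondrial ribosome translates the mRNAs of 13 genes. Of these genes 5 were raised and 1 was lowered, beside 11.1% and 7.49% of all tested genes. Their median log2 fold change was 0.097. ND4 of complex I rose from 2358 ± 68.6 to 2566 ± 152 CPM (SD, n = 3; adjusted p = 0.00742 in edgeR), COX2 from 1306 ± 23.1 to 1420 ± 88.9 CPM (0.00799) and COX3 from 2277 ± 29.5 to 2502 ± 193 CPM (0.0322). Outside the naming rule, ATP6 and ATP8 were also raised and ND6 was lowered. The sum of the 13 was 22829, 23406 and 23980 CPM in scrambled and 23726, 23988 and 26328 CPM in knockdown replicates. It was highest in knockdown replicate 3. The groups overlapped, while each knockdown sum was above the scrambled sum of the same replicate number. With the GC correction 0 were raised and 1 was lowered, and 8 of the 13 lay at an unadjusted p below 0.05 in the reported analysis and 3 were called by DESeq2. ND4 lost its call without scrambled replicate 1 (0.0792), with libraries entered singly (0.065) and with sums by the second number (0.139). COX2 lost it without scrambled replicate 1 (0.0576) or 2 (0.0519), with libraries entered singly (0.0585) and with sums by the second number (0.161). COX3 lost it in DESeq2 (0.144), with library totals (0.0645) and with sums by the second number (0.0572). Raised genes numbered 3 with library totals, 1 with libraries entered singly, 1 with sums by the second number, 1 and 2 without scrambled replicate 1 or 2, 9 without knockdown replicate 1 and 4 without knockdown replicate 3. The lowered call was lost without each scrambled replicate, without knockdown replicate 1 or 2, and with upper-quartile factors or library totals. It was also lost with libraries entered singly or summed by the second number, with limma-voom, with GC correction and block, and against a 1.2-fold change.

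The mitochondrial rRNAs were read at low levels in these rRNA-depleted libraries. RNR1 of the small subunit gave 1.77, 7.06 and 1.53 CPM in scrambled and 1.37 to 1.73 CPM in knockdown replicates, and RNR2 of the large subunit 2.14, 7.51 and 2.66 against 1.70, 2.08 and 2.21 CPM. Scrambled replicate 2 was high for both through library 2_3, at 17.3 and 16.9 CPM. The log2 fold changes of -1.17 and -1.04 did not pass the test (adjusted p = 0.422 and 0.370 in edgeR).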

How the data were processed

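Directional rRNA-depleted libraries, per the labels' protocols, were trimmed, aligned and counted with Trim Galore, STAR and featureCounts on GRCh38, per the submitters' processing notes. The authors deposited raw counts by gene symbol; their tool versions and strand option were not given in the sources used here. Protocols in the labels speak of gapmers and descriptions of siRNA; gapmers are assumed. In a library name such as 3_2, the leading number was read as biological and the trailing one as technical replicate. Of 153 pairs of libraries 0 were identical, and 0 columns were left unused.

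Technical libraries were summed, giving 3 against 3 samples of 63851576 to 76087774 counts. The test was edgeR 4.0.16 in R 4.3.3 (filterByExpr; TMM factors; robust quasi-likelihood fits), with Benjamini-Hochberg adjustment over 15678 genes and calls at an adjusted p below 0.05. CPM values use TMM-scaled library sizes. Log2 CPM used a prior count of 2 in the GC correction and in the comparison of same-numbered replicates, and no prior count in the GC trend. Coordinates, overlaps, GC content and one principal transcript per gene came from GENCODE 29, with GC content for 96.5% of tested genes; starts came from RefSeq. Longer forms of the NRF1 and YY1 motifs were searched before those given. Overlap shares are of exon length, and 35 genes of the set have a named pseudogene.

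Alternatives were DESeq2 1.42.0, RLE, upper-quartile and no factors, 2 other filters, the replicate number as a block, 18 single libraries, limma-voom (limma 3.58.1) with replicate as a random effect, sums by the second number, a lowess correction on GC content (span 0.3) with and without the block, knockdown libraries 3_2 and 3_3 left out, a 1.2-fold threshold in the test, and leaving out each replicate. The procedure was tested on simulated data.

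The members and lists were chosen with earlier results of these data known. Genes named were all called members, the 5 largest rises and falls, the 3 highest and lowest per length, DAP3, the MRPS18 genes, MRPS36, the untested member, the 3 closest to the threshold, up to 3 called genes of each other list (otherwise the one of smallest p), all mitoribosomal proteins with other names, both mitochondrial rRNAs and PCMTD1; exceptions are stated.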

Additional observations from a re-analysis of the deposited data

Results flagged for a closer look

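Among 78 groups of 9 technical libraries examined, 8 had one library farther from the rest than Dixon's 95% limit allows. That limit is for 9 independent values, while these were 3 technical libraries in each of 3 replicates, and genes share libraries. The number of flags to be had by chance is therefore not known. Of the called genes, MRPS25 was at 219.8 CPM in knockdown library 1_3, where the other knockdown libraries lay at 225 to 229 CPM. MRPL27 was at 36.2 CPM in knockdown library 2_1, above the others at 29.6 to 32.6 CPM and within the scrambled range. MRPL57 was at 21.8 CPM in scrambled library 3_2, where the others lay at 16.3 to 18.9 CPM. MRPL37 was at 229 CPM in knockdown library 3_3, against 217 to 223 CPM. The summed level of the tested genes was 4686 CPM in scrambled library 3_1, below the other scrambled libraries at 4731 to 4776 CPM and within the knockdown range of 4661 to 4706 CPM. RNR1 and RNR2 were at 17.3 and 16.9 CPM in scrambled library 2_3, against 1.10 to 2.43 CPM and 1.57 to 3.24 CPM in the others. PCMTD1 was at 24.1 CPM in scrambled library 3_1, against 18.6 to 21.3 CPM.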

How the results depend on the processing

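With 5 lowered and 1 raised gene of the set and 2920 calls over all genes in the reported analysis, counts moved as follows, and the causes were not tested. Calls over all genes numbered 4978 with libraries summed by the second number, 5009 with the GC correction, 5083 with GC correction and block, 5015 without knockdown libraries 3_2 and 3_3 and 195 against a 1.2-fold change, and 1755 to 4762 with one replicate left out. In the same order, lowered genes of the set numbered 12, 11, 13, 14 and 0, with 2 to 10 with one replicate left out, and raised genes 3, 5, 5, 8 and 0, with 0 to 7. With libraries entered singly 9 were lowered and 2 raised, and DESeq2 raised 0. The median log2 fold change of the set was 0.0049 with library totals only and -0.013 to 0.0040 with one replicate left out. Over 22 named genes of the set, 392 of the comparisons with an alternative kept their side of the threshold, 27 newly passed it and 21 no longer did. No called value changed direction, while MRPL12 and MRPS23, not called, took both signs.

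Over all 15678 tested genes, deviations of same-numbered replicates had r of 0.030, 0.011 and 0.011, and the numbers were not taken as pairs. Over the set, deviations followed GC content with r of 0.33, 0.019 and -0.40 in scrambled replicates 1 to 3. In knockdown replicates 1 to 3 these were 0.54, 0.63 and -0.77, so the signs matched by number. Whether same-numbered replicates were handled together was not tested. With the replicate block 8 genes of the set were lowered and 3 raised, 14.1% of the set, beside 25.4% of all genes, and the 6 called genes were among them. Of the 13 mitochondrial protein-coding genes 10 were raised with the block, against 5 as reported. With GC correction and block 10 were also raised, where COX3 lost its call (adjusted p = 0.0853 in edgeR), against 0 with the GC correction alone. Of the mitochondria-specific large subunit genes 3 were lowered with GC correction and block.

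MRPS24, with 23 counts, and the mitochondrial rRNAs, at a few CPM in most libraries, are read at low counts here.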
